A study of Homo sapiens with 4 samples.

Results

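The genes that build cholesterol and fatty acids were followed in SUM149 cells treated with Ricolinostat (ACY1215), an inhibitor of the deacetylase HDAC6. The set is a list of gene symbols of these pathways, chosen with earlier results of these data known, and holds 31 of the 34755 genes on the array. The sterol arm has 18 of these genes, 7 from acetyl-CoA to farnesyl diphosphate and 11 from the synthesis of squalene to cholesterol. A further 5 genes are the regulators SREBF1, SREBF2, SCAP and INSIG1 and the sterol carrier STARD4, and 8 genes form the fatty acid arm. SUM149 is an established line from an inflammatory breast cancer. Cells were plated for 24 hours and then left untreated or given 2.5 uM Ricolinostat for 3, 6 or 12 hours. Total RNA of each group was hybridised in Cy5 on 1 two-colour Agilent array, with a common reference in Cy3. All 4 groups are the same line without a transgene or selection named in the labels, and no time-matched vehicle array was analysed here, so the drug and the hours in culture cannot be told apart.

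Cholesterol synthesis is governed by SREBP transcription factors, which are made as precursors in the membrane of the endoplasmic reticulum. When sterols are scarce, the escort protein SCAP carries the precursor to the Golgi, where proteases release the active factor. INSIG proteins hold SCAP back when sterols are plentiful, and INSIG1 is itself a target gene of the pathway. SREBP2, the product of SREBF2, acts mainly on sterol genes, and SREBP1, the product of SREBF1, mainly on fatty acid genes.

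Each value is a log2 ratio of Cy5 over Cy3, and a change is the difference between a treated and the untreated array in that ratio. There is 1 array per time point, hence no replicate check and no test between time points. The number of arrays limits the precision. As a measure of spot error alone, the SD of a log2 change between repeated spots of 1 probe was 0.17 at 3 hours (159 probes), 0.12 at 6 hours (201 probes) and 0.12 at 12 hours (211 probes). Differences between cultures, extractions or labelling are not covered by it. Only 1, 2 and 3 of the repeated probes at these times had a mean log2 intensity below 8. With 5 members in that dim class, their spot error is poorly covered. Each member probe had 1 spot, and 25 members had 1 probe. A gene was called higher or lower when the change reached 1.5-fold (0.58 on the log2 scale) with Cy5 and Cy3 signals that the software marked as well above background on the arrays compared. All 31 members met that signal criterion on all 4 arrays. The background correction adds an offset of 50 that shrinks folds, more so for dim genes, so a gene that was not called may still have changed.

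Parts of the arrays were damaged. Areas with many defective spots covered 3.35% of the untreated array, 4.59% of the 3 hour array, 0.186% of the 6 hour array and 0% of the 12 hour array. The areas held spots of 4 members, FDPS and ACLY on the untreated array and SCAP and STARD4 on the 3 hour array. The scanner software flagged FDPS (in Cy5) and INSIG1 (in Cy3) as outliers on the untreated array, and both were set aside, which left 29 members with a change from untreated. PMVK on the 3 hour array lay outside these areas, but its Cy3 signal was 363 there against 919.5 to 1085 on the other arrays. Epithelial markers fitted the label, since CDH1, EPCAM, KRT5, KRT14, KRT17, KRT8 and KRT18 were all well above background in Cy5 on 4 arrays, with signals from 3387 to 49473. The adipocyte markers ADIPOQ, PLIN1 and LEP were above background on 0 arrays. Of the other lists, fibroblast markers (3 of 3, Cy5 signals 102.3 to 476), leukocyte markers (3 of 3, 32.0 to 224), endothelial markers (2 of 2, 34.0 to 239) and hepatocyte markers (4 of 4, 31 to 992) were above background. Of the hormone receptors ESR1 was above background on 4 arrays (172 to 262) and PGR on 0. The part of these markers in the results was not tested.

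Promoter sequence was taken from RefSeq (GRCh38.p14) for 27 of the 31 genes, as 300 bases from 250 before to 50 after a start. The sterol regulatory element core TCACNCCAC, on either strand, was found for 1 of these 27 genes, SREBF2, against 1.39% of the 27305 genes of the table. CCAAT, the box bound by NF-Y, was found for 20 of 27 (74.1%), against 39.7% of all genes. In the sterol arm 13 of 15 genes held it, and in the fatty acid arm 4 of 7. The GC box GGGCGG was found for 26 of 27, against 48.3% of all genes, and the E-box CANNTG for 19 of 27, against 73.1%. Matches of different motifs overlapped in 2 of the 38 promoters of these genes. Other spellings of the sterol element were not searched. A gene counted when any of its promoters held the motif. The shares over all genes were not matched to the members by type of gene or number of promoters, so no enrichment is read from them. The 250 bases before the start are shown for HMGCS1 (chr5:43313413-43313662, minus strand), MSMO1 (chr4:165327419-165327668, plus strand) and INSIG1 (chr7:155297628-155297877, plus strand), genes with some of the largest rises in Cy5 signal, and for SREBF2 (chr22:41832855-41833104, plus strand), the gene with the sterol element core. Capitals mark CCAAT or its complement ATTGG, and TCACNCCAC in SREBF2.
HMGCS1: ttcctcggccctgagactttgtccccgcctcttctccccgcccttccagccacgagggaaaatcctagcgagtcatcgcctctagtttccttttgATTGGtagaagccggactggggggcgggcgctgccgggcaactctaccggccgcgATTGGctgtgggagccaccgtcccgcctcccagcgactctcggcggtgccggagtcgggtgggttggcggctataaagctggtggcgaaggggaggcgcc
MSMO1: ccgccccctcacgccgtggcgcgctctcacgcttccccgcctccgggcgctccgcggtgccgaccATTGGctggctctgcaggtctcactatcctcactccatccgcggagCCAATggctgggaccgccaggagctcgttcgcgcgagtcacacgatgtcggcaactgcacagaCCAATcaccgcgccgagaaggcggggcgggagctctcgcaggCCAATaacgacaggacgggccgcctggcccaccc
INSIG1: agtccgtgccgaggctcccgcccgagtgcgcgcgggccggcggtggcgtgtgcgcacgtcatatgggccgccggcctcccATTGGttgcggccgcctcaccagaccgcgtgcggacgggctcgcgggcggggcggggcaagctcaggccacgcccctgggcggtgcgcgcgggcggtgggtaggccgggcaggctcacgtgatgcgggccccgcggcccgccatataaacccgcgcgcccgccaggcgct
SREBF2: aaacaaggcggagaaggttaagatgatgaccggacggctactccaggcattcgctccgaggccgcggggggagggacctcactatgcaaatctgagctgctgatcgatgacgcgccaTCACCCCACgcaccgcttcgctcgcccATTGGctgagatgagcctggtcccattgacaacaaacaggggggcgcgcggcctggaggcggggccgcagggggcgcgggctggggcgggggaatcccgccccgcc
HMGCS1 holds 2 such boxes, MSMO1 4, INSIG1 1 and SREBF2 1. The INSIG1 and SREBF2 windows also overlap the noncoding genes INSIG1-DT and SREBF2-AS1.

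In treated cells the median sterol gene lay above the untreated array at each time and under each setting tried, while the median fatty acid gene lay below it, except at 3 hours with centring (0.06) or Cy5 alone (0.02) and at 12 hours in the cases given next. Over its 17 measured genes, the sterol arm had median log2 changes of 0.17, 0.34 and 0.45 in time order. The fatty acid arm had medians of -0.06, -0.21 and -0.12 over 8 genes, where the 12 hour value became 0.09 without damaged areas or without ACLY, whose untreated spot was damaged, and 0.05 with Cy5 alone. The median over all measured genes was 0.01, 0.02 and 0.01. The sterol median exceeded the fatty acid median by 0.23, 0.55 and 0.57 at the 3 times, and by 0.23, 0.53 and 0.36 without ACLY. At 12 hours 16 of 17 sterol genes were above 0, PMVK being the exception, where 10741 of all 20485 genes were. With arrays only centred on their median 12 of 17 were above 0, where 5956 of all genes were. The 11 genes from the synthesis of squalene onwards had a median of 0.47 at 12 hours, and the 6 measured genes before them 0.28. These medians were 0.10 and -0.03 when arrays were only centred on their median.

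Centring in place of loess shifted bright genes, upwards at 3 hours (median over genes with a mean log2 intensity of 10 or more 0.12, against 0.03) and downwards later. At 12 hours it moved the median of all genes from 0.01 to -0.16, and that of the 4516 genes with a mean log2 intensity of 10 or more from 0.04 to -0.35. Of the 31 members 19 are in that bright class. Centred, the sterol median at 12 hours was 0.10, which is 0.26 above that of all genes, and the fatty acid median was -0.50, which is 0.34 below it. With the Cy5 channel alone the medians were 0.27 and 0.05, against -0.04 over all genes. The sterol median stayed above the fatty acid median at 3, 6 and 12 hours under each setting tried (plot of arm medians by setting).

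**Figure D1:**
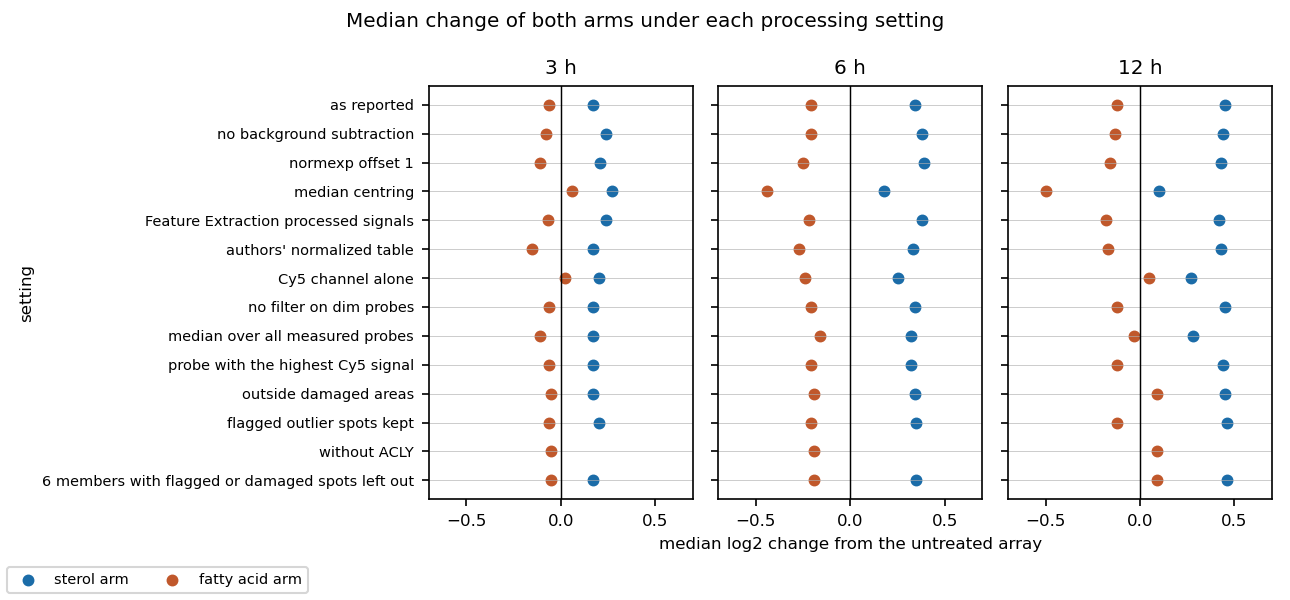
Median log2 change from the untreated array (x axis) of the sterol arm (blue) and the fatty acid arm (orange) at 3, 6 and 12 hours under each processing setting (y axis). The sterol median lies to the right of the fatty acid median in each row that has both, and the fatty acid median at 12 hours crosses 0 when ACLY or damaged areas are left out or Cy5 is used alone.

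Counts of called genes were read against all genes measured. At 3 hours 5 members were called higher, where 6.90% of all genes were, and 1 was called lower, where 1.96% were. Among those called higher, SCAP and STARD4 had damaged spots at 3 hours and were at -1.17 and -0.71 in Cy5 alone. At 6 hours 6 were higher (9.40% of all genes) and 1 was lower (4.42%). At 12 hours 8 were higher (8.09%) and 2 were lower (5.13%). In the sterol arm 3, 5 and 5 of 17 genes were higher at the 3 times and 0 were lower. The 2-fold mark was passed upwards by 1, 3 and 4 members, against 1.71%, 2.81% and 2.34% of all genes. It was passed downwards by 1 member, ACLY, at each time, against 0.375%, 0.944% and 1.12%. ACLY is also among the members called lower at 1.5-fold at each time. Its untreated spot was damaged, and in Cy5 alone it was higher by 0.78, 0.82 and 0.79, so its place in these counts is in doubt. Centring on the median changed the split at 12 hours from 8 higher and 2 lower to 4 higher and 5 lower, and that of all genes from 1657 higher and 1051 lower to 847 higher and 2841 lower.

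**Figure D2:**
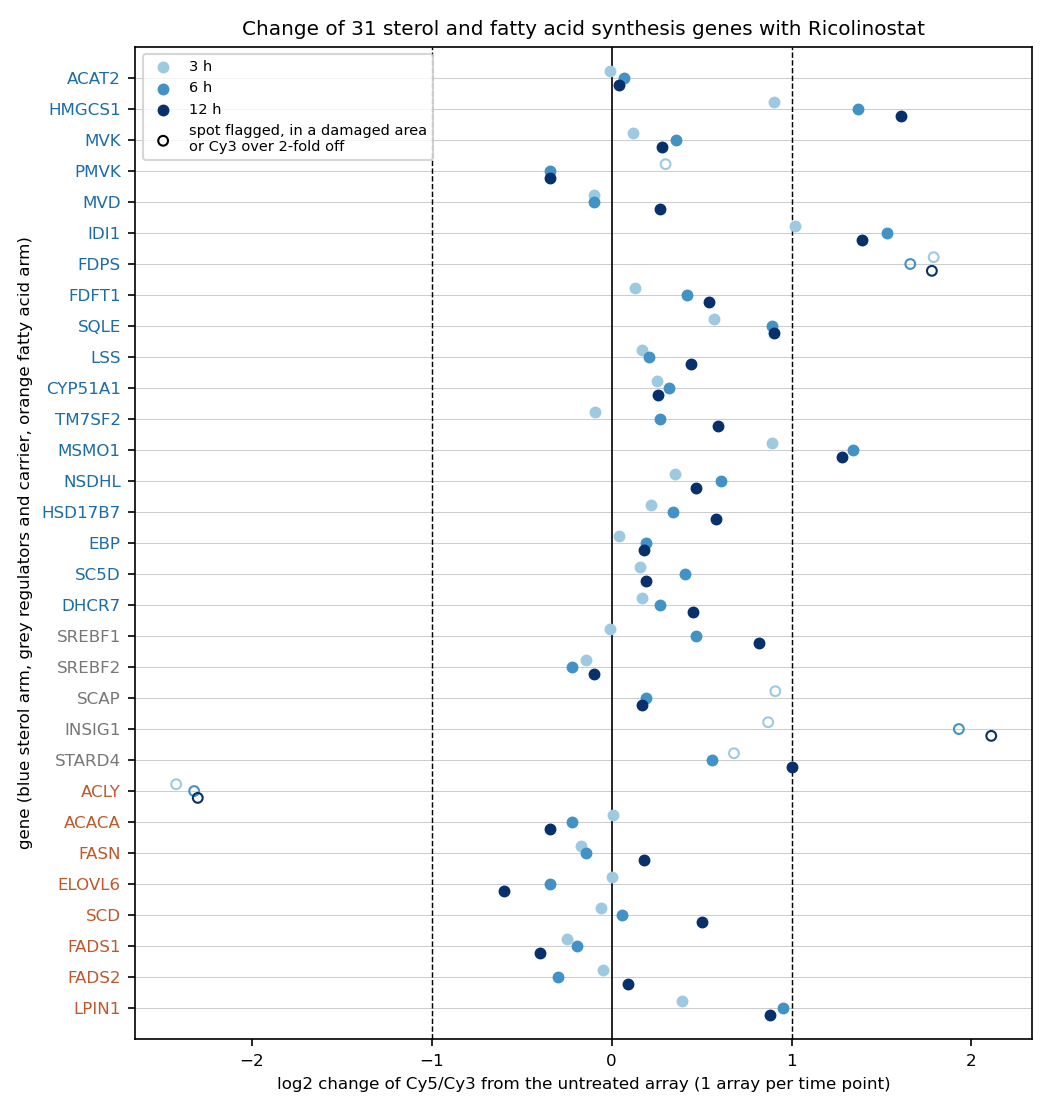
Log2 change of Cy5/Cy3 from the untreated array (x axis) for each of the 31 genes (y axis) at 3, 6 and 12 hours, 1 array each, with dashed lines at 2-fold. Open circles rest on a spot that was flagged, in a damaged area or over 2-fold off in Cy3, and HMGCS1, IDI1 and MSMO1 pass 2-fold at 6 and 12 hours on sound spots.

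HMGCS1, which makes HMG-CoA in the cytosol, had the highest change of the measured members at 12 hours. Its log2 ratio was -2.07 in untreated cells, -1.17 at 3 hours, -0.69 at 6 hours and -0.45 at 12 hours. Its Cy5 signal went from 290 to 613, 709.5 and 681, while Cy3 stayed between 914 and 1045. All treated arrays were thus above the untreated one, by 1.86-fold, 2.59-fold and 3.06-fold. The 12 hour change of 1.61 was the 66th highest of 20485 genes, and it ranged from 1.35 to 1.75 over the settings.

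IDI1, the isomerase that supplies dimethylallyl diphosphate, had log2 ratios of -0.50, 0.52, 1.03 and 0.88 in time order. It was 2.02-fold higher at 3 hours, 2.89-fold at 6 hours and 2.61-fold at 12 hours. The 6 hour array was the highest of the 4. At 12 hours the change was 1.39, and 1.09 with centring. FDPS, which joins isoprene units into farnesyl diphosphate, had Cy5 signals of 3450, 11181.5, 8516 and 7951, with Cy3 at 8488, 7157.5, 7765 and 7748. The untreated Cy5 spot was flagged as uneven and lay in a damaged area, so its level there is in doubt. With that spot kept, the changes would be 1.79, 1.66 and 1.78.

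The other measured genes of the mevalonate steps were not called at any time. ACAT2, MVK, PMVK and MVD make acetoacetyl-CoA, phosphorylate mevalonate in successive steps and decarboxylate the product. Their changes at 12 hours ran from -0.34 (PMVK) to 0.28 (MVK). MVD was at -0.10 at 3 and 6 hours and 0.27 at 12 hours.

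MSMO1, which removes methyl groups at carbon 4 of the sterol ring, was the most changed gene after squalene. Its log2 ratios were 0.56, 1.45, 1.90 and 1.84, with Cy5 signals of 553, 1027.5, 1141 and 1058. It was 1.85-fold, 2.53-fold and 2.42-fold higher at 3, 6 and 12 hours, with all treated arrays above the untreated one. SQLE, the epoxidase of squalene and a rate-limiting step, had log2 ratios of -0.43, 0.13, 0.46 and 0.46. It was 1.48-fold higher at 3 hours, just short of a call, and 1.86-fold higher at 6 and at 12 hours. The 12 hour change of 0.90 became 0.51 with centring, below the call.

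NSDHL and TM7SF2 were called at 1 time each. NSDHL, a partner of MSMO1 in the same demethylation, had log2 ratios of 1.23, 1.58, 1.84 and 1.70, and was called at 6 hours only, with a change of 0.61 that was 0.39 with centring. TM7SF2, a sterol reductase, had log2 ratios of -1.05, -1.15, -0.78 and -0.46. Its change was -0.09 at 3 hours, within the spot SD, and 0.59 at 12 hours. Its Cy5 signals were low, from 72.5 to 119, and over the settings the 12 hour change ran from 0.44 to 1.04.

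The remaining steps stayed under 1.5-fold on their representing probe in the values given here. FDFT1, LSS, CYP51A1, HSD17B7, EBP, SC5D and DHCR7 were all above 0 at the 3 times, from 0.04 (EBP, 3 hours) to 0.58 (HSD17B7, 12 hours). FDFT1, the synthase of squalene, reached 0.54 at 12 hours, and DHCR7, which acts at the end of the pathway, 0.45. SC5D, a desaturase with Cy5 signals of 41 to 76, was at 0.41 at 6 hours, and ran over the settings from 0.34 with Cy5 alone to past 2-fold with Feature Extraction's processed signals, and was past 1.5-fold with no background subtraction (0.69) or an offset of 1 (0.94). FDFT1 and HSD17B7 passed 1.5-fold at 12 hours under some settings, at up to 0.67 and 0.74. With centring CYP51A1 and EBP were at -0.12 and -0.27 at 12 hours. LSS was at 0.44 at 12 hours, and a second, dim LSS probe (Cy5 44.5 to 58) at 0.06. HSD17B7 has 4 probes, and the other three were at 0.04, 0.13 and 0.04 at 12 hours. Its pseudogene copies can share signal with these probes, so its value is uncertain.

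**Figure D3:**
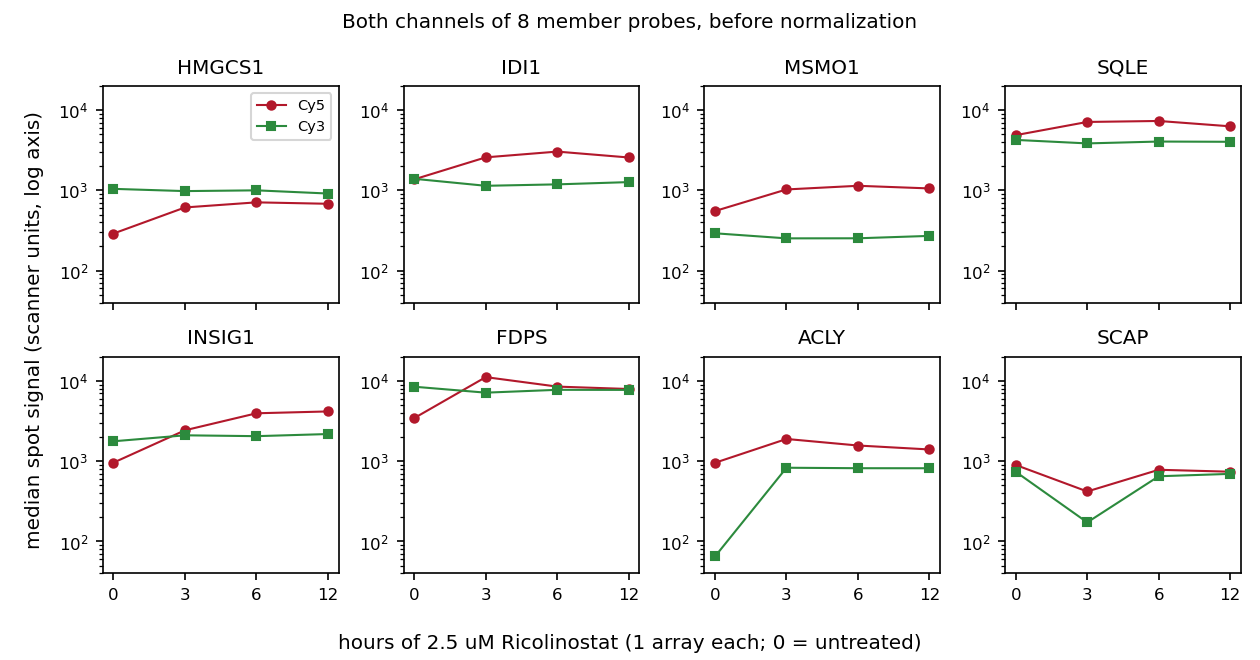
Median spot signal of the sample (Cy5, red circles) and of the reference (Cy3, green squares) in scanner units on a log axis, before normalization, for 8 member probes on the 4 arrays (x axis, hours of Ricolinostat). In HMGCS1, IDI1, MSMO1, SQLE and INSIG1 the Cy5 line is higher on each treated array while Cy3 is nearly flat, and ACLY at 0 hours and SCAP at 3 hours show a drop in Cy3.

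Among the regulators, INSIG1, the retention factor, had Cy5 signals of 961, 2432, 3961 and 4176 in time order. Cy3 was 1773.5, 2105, 2054 and 2183. The Cy3 spot of the untreated array was flagged as uneven, so the ratio was set aside there. Cy5 alone, which was not flagged, was higher by 1.13, 2.15 and 2.34 on the log2 scale, the highest of the 30 members measured in that channel at 12 hours. With the flagged spot kept, the ratio changed by 0.87, 1.93 and 2.11.

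SREBF1 had log2 ratios of -0.82, -0.82, -0.34 and 0.00. Its change was -0.01 at 3 hours and 0.47 at 6 hours, and it was called higher at 12 hours, at 0.82. With centring the 12 hour value was 0.41. A second SREBF1 probe gave 0.02, 0.00 and 0.57. SREBF2 was at -0.14, -0.22 and -0.10, without a call at any time.

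SCAP, the escort of both factors, was called higher at 3 hours (0.91), where its spot was damaged: Cy5 was 420 against 740.5 to 898.5 on the other arrays, and Cy3 was 173 against 650 to 739. At 6 and 12 hours SCAP was at 0.19 and 0.17. STARD4, a soluble carrier of sterols, was also called higher at 3 hours (0.68) on a spot in a damaged area (Cy5 99.5, Cy3 51.5). On the sound arrays its log2 ratios were -0.21 untreated, 0.35 at 6 hours and 0.79 at 12 hours. It was 1.48-fold higher at 6 hours and 2-fold higher at 12 hours. That 12 hour change was 0.82 with centring and 0.75 with Cy5 alone, below 2-fold.

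In the fatty acid arm 2 genes were called on sound spots, 1 in each direction, and each call at 12 hours was lost under a setting tried, LPIN1 with centring (0.57) and ELOVL6 with Cy5 alone (-0.48). LPIN1, which makes diacylglycerol from phosphatidic acid, had log2 ratios of -1.05, -0.66, -0.09 and -0.16. It was 1.31-fold, 1.94-fold and 1.84-fold higher at 3, 6 and 12 hours. A second LPIN1 probe, annotated to another transcript, was at -0.01, -0.01 and -0.05, and another was not well above background, so that the median over its 2 measured probes was 0.41 at 12 hours. ELOVL6, which lengthens palmitate, had log2 ratios of 0.99, 0.99, 0.66 and 0.40. Its change was 0.00 at 3 hours and -0.34 at 6 hours, and at 12 hours it fell by 0.60 on the log2 scale, past 1.5-fold (0.662 of the untreated level). A second ELOVL6 probe, damaged on the untreated array, was at -0.56, -0.70 and -0.85.

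ACLY, which splits citrate into the acetyl-CoA used by both arms, gave opposite answers in ratio and sample channel. The log2 change of its ratio was -2.42, -2.32 and -2.30. Its untreated Cy3 signal was 65, however, against 818 to 830 on the other arrays, in a damaged area. Its Cy5 signals were 957, 1895, 1571 and 1402, which made Cy5 alone higher by 0.78, 0.82 and 0.79. The untreated Cy5 spot shares that area, so neither direction rests on a sound untreated spot. From 6 to 12 hours, on sound spots, ACLY changed by 0.02.

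FASN, ACACA, SCD, FADS1 and FADS2, which make palmitate, its precursor malonyl-CoA and unsaturated fatty acids, were not called, though with centring ACACA and FADS1 passed 1.5-fold downwards at 12 hours, at -0.72 and -0.83. FASN was at -0.17, -0.14 and 0.18 (-0.23 at 12 hours with centring), and SCD at -0.06, 0.06 and 0.50. ACACA was at 0.01, -0.22 and -0.34. A second, dimmer ACACA probe was at 0.08, -0.04 and 0.05, and with centring at -0.16 at 12 hours. FADS1 was below 0 at each time, at -0.25, -0.19 and -0.40. In Cy5 alone FADS1 was lower by 0.74, 0.64 and 0.81, and its Cy3 signal also differed, at 3981 on the untreated array and 2854 to 3302 on the others.

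**Figure D4:**
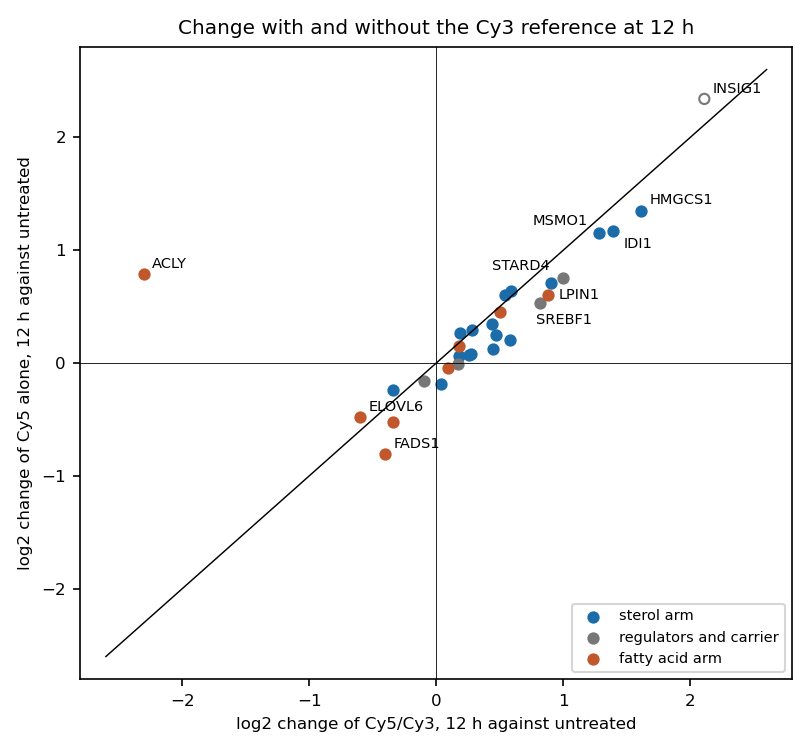
Log2 change at 12 hours of the Cy5/Cy3 ratio (x axis) and of Cy5 alone (y axis), each point 1 gene and the line marking equal values, with INSIG1 as an open circle since its ratio uses a flagged spot, and FDPS left out. Most genes lie close to the line, and ACLY stands apart at -2.30 in the ratio and 0.79 in Cy5 alone.

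The step from 6 to 12 hours was read on the 2 arrays with the least damage, where all 31 members were measured. None of the members was called in either direction, against 0.468% of all genes higher and 1.15% lower. The changes ran from -0.26 (ELOVL6) to 0.44 (SCD), and the spot SD here was 0.08 (233 probes). This SD does not cover differences between cultures. In the fatty acid arm 4 genes were above 0 and 4 below. SCD, FADS2 (0.39) and FASN (0.32) were the highest, and ELOVL6 and FADS1 (-0.21) the lowest. In the sterol arm 9 genes were above 0 and 9 below, where 10061 of all 20714 genes were above and 10653 below. MVD (0.37), TM7SF2 (0.32), HMGCS1 (0.24), HSD17B7 (0.24) and LSS (0.23) were the highest, and SC5D (-0.22) was the lowest. Other probes gave 0.01, -0.11 and -0.25 for HSD17B7 and -0.20 for LSS. IDI1, SQLE and MSMO1 were at -0.14, 0.00 and -0.06. SREBF1 and STARD4 were at 0.34 and 0.44. With centring SCD, FADS2 and FASN were at 0.31, 0.23 and 0.15.

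Other genes of these pathways were taken from lists of symbols. Of 17 measured genes in other sterol biology, 6 were called higher at 12 hours and 0 lower, where 8.09% and 5.13% of all genes were, with a median of 0.44. With centring 2 were higher and 1 lower, with a median of 0.05. Of all 20485 genes 847 were then higher and 2841 lower, with a median of -0.16. The centred counts of the lists below are to be read against these. INSIG2, the second retention factor, had the largest change of these at 12 hours, with Cy5 signals of 215, 689, 585 and 502 and changes of 1.43, 1.59 and 1.48. Of 6 genes of sterol efflux and its receptors, 1 was higher and 2 were lower, against the same shares of all genes, with a median of -0.18. With centring 1 was higher and 3 were lower, with a median of -0.44. LPCAT3, an acyltransferase of membrane lipids, was the largest, at 0.57, 0.90 and 1.04. Of 28 other fatty acid genes, 8 were higher and 2 lower at 12 hours, against 8.09% and 5.13% of all genes, with a median of 0.18. With centring the split turned to 5 higher and 7 lower, with a median of -0.07. The elongase ELOVL3 led this list at 1.67, with Cy5 signals from 88 untreated to 333 at 12 hours. Of 10 genes of fatty acid oxidation 1 was higher at 12 hours and 0 lower, where 8.09% and 5.13% of all genes were. The called gene was PDK4, a kinase that curbs pyruvate entry into mitochondria, at 0.64 after 1.15 at 6 hours. The median of that list was 0.23, and with centring it was 0.02, with 0 higher and 1 lower.

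The labels describe the reference as a pool of the SUM149 samples, yet the Cy3 channel held far more signal of some markers than any Cy5 channel. ALB, a liver gene, had Cy3 signals of 21137 to 22178 against Cy5 signals of 154 to 231.5, and COL1A2, a fibroblast gene, 3679 to 4128 against 102.3 to 144.7. What the reference holds was not tested. Of the 29 members with a ratio on each array, 10 were below 0 on all 4 arrays and 8 above 0 on all 4, HMGCS1 and MSMO1 among them. The levels of single ratios are therefore not read here, and changes from untreated, in which a common reference cancels, are given instead.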

How the data were processed

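RNA of SUM149 cells was measured on 4 two-colour arrays of 1 slide. The authors deposited, per array, the intensity of each spot and its local background in both channels with outlier and background flags, as extracted by Feature Extraction 12.0.1.1. A further deposited table holds log2 ratios that the authors normalized, whose normalization is not given in the sources used here and whose columns correlated across probes at 0.995 or 0.996 with an offset of 1. Gene symbols come from that table, and each of its sample columns was used.

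Median signals were background-corrected (normexp, offset 50), control spots were dropped, outlier spots were set aside, and arrays were normalized by loess and Aquantile in limma 3.58.1 (R 4.3.3). The normexp offset shrinks the changes of dim genes. Each gene was read from the 1 probe brightest in Cy3 on average. An area (13 rows by 7 columns around a spot) counted as damaged where 10% of its spots or more were flagged or over 2-fold off in Cy3. The normalization was tested on simulated data. Counts and medians were made in Python 3.11.15 (pandas 2.3.3). No test was made with 1 array per time point. All members may be named, with full values for those past 1.5-fold at any time, and in each other list the largest change at 12 hours. The members and lists were chosen with earlier results of these data known. The arrays were designed on another genome build, so only promoters have coordinates. Alternatives covered background, normalization, channel, filter, probe choice, damaged areas and membership.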

Additional observations from a re-analysis of the deposited data

How the results depend on the processing

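No paired analysis was possible because the groups hold a single array each. Without replicates, shifts of a median were set against the spot SD, which is that of single probes and wide for a median, so a shift under it does not show stability. Median centring moved the sterol median to 0.18 at 6 hours, 0.10 at 12 hours and -0.15 from 6 to 12 hours, and the fatty acid median to -0.44, -0.50 and -0.17. Centred, 3 members were 2-fold higher at 3 hours, and 4 were 1.5-fold higher and 5 lower at 12 hours. Of all genes 525 of 20774 were then 2-fold higher at 3 hours. At 12 hours 847 of 20485 were 1.5-fold higher and 2841 lower. With Cy5 alone the 12 hour medians were 0.27 and 0.05 and their difference 0.22. In that channel 2 members were 2-fold and 4 were 1.5-fold lower at 3 hours, 0 were 2-fold lower at 6 and 12 hours, and 1 was 1.5-fold lower at 12 hours. Of all genes in Cy5 alone, 347 of 21699 were 2-fold and 1122 were 1.5-fold lower at 3 hours. At 6 hours 323 of 20945 were 2-fold lower, and at 12 hours 399 of 21127 were, with 1675 past 1.5-fold. Counts over all genes are not given for the other settings of this section. In Cy5 alone SCAP was at -1.17 and STARD4 at -0.71 at 3 hours, and ACLY at 0.78, 0.82 and 0.79. The median over all probes of a gene gave a sterol median of 0.28 at 12 hours and a difference of 0.31. Outside damaged areas 3 members were 1.5-fold higher at 3 hours, 0 were lower at 3 and 6 hours at either fold, and at 12 hours 0 were 2-fold and 1 was 1.5-fold lower. There the fatty acid median at 12 hours was 0.09 and the difference 0.36, as without ACLY. Chosen after seeing the data, leaving out the 6 members with doubtful spots gave 0.09 and 0.37, and keeping flagged spots gave 2 members 2-fold higher at 3 hours and 5 at 6 hours. Of members 2-fold higher at 3 hours, 3 were found with no background subtraction or with an offset of 1, and 2 in the authors' table. In the former settings these included SCAP (1.05 and 1.07) and STARD4 (1.05 and 1.18), whose 3 hour spots were damaged. Of the 282 comparisons of medians and counts with an alternative, 245 stayed within the spot SD or within 1.5 times, 33 moved further and 4 changed sign by more than that SD, the latter all for the fatty acid median at 12 hours. Signals near background, as for SC5D and TM7SF2, limit precision.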

Other observations

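Some further genes of the list of other fatty acid genes are given here, chosen after their values were seen. ELOVL4 had changes of 1.40, 1.95 and 1.53 at 3, 6 and 12 hours, and SCD5, a stearoyl-CoA desaturase, 0.65, 1.05 and 1.31. ACSS2, which makes acetyl-CoA from acetate, was at 0.34, 0.68 and 0.89. The elongase ELOVL1 was at -0.40, -0.68 and -0.49, and PTPLA, a dehydratase of the same elongation cycle, at -0.07, -0.22 and -0.45. MID1IP1, a cofactor of acetyl-CoA carboxylase, was at -1.49, -1.62 and -0.89, with Cy5 signals of 4420, 1688, 1079 and 1563. At 12 hours ELOVL4, SCD5, ACSS2, ELOVL1, PTPLA and MID1IP1 were at 1.40, 1.15, 0.64, -0.77, -0.75 and -1.31 with arrays only centred.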
